A study of Mus musculus with 10 samples.

Results

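The 10 genes described here belong to the NF-kB pathway of cultured mouse adipose tissue stem and precursor cells (ASPCs). They are 4 NF-kB subunit genes (Nfkb1, Rela, Nfkb2 and Relb), 2 inhibitors that NF-kB itself induces (Nfkbia and Tnfaip3), 2 adhesion molecules (Vcam1 and Icam1) and 2 secreted matrix proteins (Ptx3 and Tnfaip6). They were chosen by gene symbol with earlier results of these data known, and all 10 were found among the 25229 rows of the count table. All 10 also passed the filter on low counts, which left 14251 genes for testing. The cells were CD45-CD31-Pdgfra+ cells sorted from perigonadal white adipose tissue (gWAT) of WT mice and grown to confluence without passaging. Of 10 libraries, 5 came from cells given the vehicle DMSO and 5 from cells given 100 nM FICZ, a ligand of the aryl hydrocarbon receptor (AHR), and all were collected after 6 hr. Libraries carry the numbers 1 to 5 in each group. The sources used here give neither the age nor the sex of the mice for these cells, nor what a number stands for, so p-values measure the spread between these libraries, which may be technical. The cells had left the tissue and expanded in culture, so the levels are those of cultured precursors.

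NF-kB is a family of dimeric transcription factors that are held in the cytoplasm by IkB proteins until an inflammatory signal, such as TNF or IL-1, activates the IkB kinase complex. In the canonical arm, dimers of RelA and p50 (made from the Nfkb1 product p105) are released when IkB-alpha is degraded. In the non-canonical arm, p100 (from Nfkb2) is processed to p52, which pairs with RelB. The released dimers bind kappaB sites and induce chemokines, adhesion molecules and, as feedback, IkB-alpha (Nfkbia) and the ubiquitin-editing enzyme A20 (Tnfaip3). In stromal cells they also induce pentraxin 3 (Ptx3) and TSG-6 (Tnfaip6), secreted proteins that act together in a hyaluronan-rich matrix. Messenger RNA of a subunit does not measure its activity, which is set largely by where the protein is.

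The libraries held between 38328607 and 50210110 counts with DMSO and between 40272019 and 47670857 with FICZ, and a count of 3 in 1 library corresponds to between 0.0597 and 0.0783 counts per 1000000 (CPM, elsewhere given after TMM scaling). As a check of the treatment, the AHR targets Cyp1a1, Ahrr and Tiparp passed an adjusted p of 0.05 with edgeR (log2 fold changes 3.25, 1.66 and 0.91), whereas Cyp1b1 was at 0.62 with an adjusted p of 0.147. These 3 genes, all higher with FICZ, were 0.0211% of the genes tested and were the only ones past the threshold without a replicate block, against 8 (0.0561%) in the fit that takes the replicate number as a block. In that fit Cyp1a1 and Ahrr passed, and Tiparp had an adjusted p of 0.0509. The 10 ASPC markers were all detected, with a summed level of 6312 to 8802 CPM with DMSO and 5865 to 8150 CPM with FICZ. Markers of other cells were summed to 65.8 to 88.4 CPM with DMSO and 71.3 to 85.4 CPM with FICZ for endothelial cells (10 genes, 8 of them tested), to 22.8 to 47.5 and 22.3 to 35.1 CPM for leukocytes (12 genes, 9 tested), and to 74.0 to 136 and 76.5 to 93.1 CPM for mesothelial cells (9 of 10 genes had a row, all 9 tested). The 20 hepatocyte markers, genes of the liver, summed to 2033 to 12158 CPM with DMSO and 2158 to 2954 CPM with FICZ. Their highest sum was in DMSO replicate 5, where Alb (albumin) alone reached 4782 CPM. The main results are therefore also given without that library. No marker with a row was at 0 in every library.

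Of the 10 genes, 7 had a promoter entry in RefSeq (GRCm38.p6): Ptx3, Icam1, Nfkb2, Rela, Nfkbia, Tnfaip3 and Tnfaip6. Windows of 280 bases, from 250 bases before the start of transcription to 30 bases after it, were searched on both strands for the kappaB consensus decamer. It was found in 4.22% of all 32851 such windows. The 3 windows below are shown because Ptx3 had the largest log2 fold change of the 10 genes and Nfkbia and Tnfaip3 are the feedback genes of the same pathway. Capitals mark the matches.
Ptx3 (chr3:66219637-66219916, plus strand): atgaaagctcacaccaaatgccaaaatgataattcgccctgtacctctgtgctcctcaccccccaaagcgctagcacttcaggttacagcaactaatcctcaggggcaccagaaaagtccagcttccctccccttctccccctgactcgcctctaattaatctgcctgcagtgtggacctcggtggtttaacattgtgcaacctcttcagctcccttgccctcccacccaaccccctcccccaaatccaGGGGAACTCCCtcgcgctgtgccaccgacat
Nfkbia (chr12:55492618-55492897, minus strand): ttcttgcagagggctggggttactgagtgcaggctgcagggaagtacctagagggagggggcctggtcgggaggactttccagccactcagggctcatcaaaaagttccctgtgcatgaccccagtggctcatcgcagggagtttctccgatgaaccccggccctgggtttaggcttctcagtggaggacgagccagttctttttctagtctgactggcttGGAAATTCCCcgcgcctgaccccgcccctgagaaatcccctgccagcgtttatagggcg
Tnfaip3 first promoter (chr10:19015381-19015660, minus strand): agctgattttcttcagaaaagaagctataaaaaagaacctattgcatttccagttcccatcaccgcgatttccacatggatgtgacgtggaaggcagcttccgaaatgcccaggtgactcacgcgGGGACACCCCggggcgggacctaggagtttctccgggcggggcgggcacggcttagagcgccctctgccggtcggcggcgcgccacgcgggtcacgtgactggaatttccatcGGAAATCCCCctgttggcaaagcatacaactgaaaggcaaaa
In Ptx3 the run of 11 capitals, from -1 to +10 around the RefSeq start site, holds 2 overlapping matches. The GENCODE start of Ptx3, at 66219910, lies within this window and after the run. Positions here count from the RefSeq starts. In Nfkbia the match lies at -29 to -20, and in Tnfaip3 the matches lie at -125 to -116 and at -12 to -3. Each of the 3 windows of Nfkb2 also held a match. Its windows 2 and 3 overlap, and the match of window 3 is also one of those in window 2. The windows of Icam1, Rela and Tnfaip6 and the second window of Tnfaip3 held none. The core of the AHR response element, GCGTG on either strand, occurred in 30.8% of all windows. It was absent from these windows of Ptx3 and Nfkbia and occurred 2 times in the first of Tnfaip3. A match describes letters only, and a window without one does not bear on sites elsewhere.

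Ptx3, the long pentraxin of innate immunity and matrix assembly, had the largest difference of the 10 genes. The gene lies on chromosome 3 from 66219910 to 66225805 (GRCm38, plus strand) and shares no exon bases with another gene. In DMSO replicates 1 to 5 it was at 117, 196, 136, 102 and 62.0 CPM, and in FICZ replicates 1 to 5 at 223, 251, 175, 181 and 154 CPM. The lowest values were DMSO replicates 5 and 4, the highest FICZ replicates 2 and 1, and the groups overlapped through DMSO replicate 2, which lay above 3 FICZ libraries. The mean was 123 ± 49.1 CPM with DMSO and 197 ± 39.4 CPM with FICZ (SD, n = 5), a ratio of means of 1.6. FICZ was higher in 5 of 5 same-numbered pairs, by 0.93, 0.36, 0.36, 0.82 and 1.31 on the log2 scale. The log2 fold change was 0.68 ± 0.25 (SE, 95% interval 0.12 to 1.24), with an unadjusted p of 0.0207 and an adjusted p of 0.999 by edgeR over all genes tested. A two-sided exact permutation test on its log2 CPM gave p = 0.0317, where 5 against 5 libraries can reach 0.00794. Ptx3 therefore did not pass the threshold of the edgeR test. In bulk libraries such as these, more cells of one kind and more RNA of a gene in each cell cannot be told apart.

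Blocking by replicate number changed this call with one tool and not with another. In the blocked fit Ptx3 had a log2 fold change of 0.75 ± 0.15 (SE, 95% interval 0.41 to 1.10), with an adjusted p of 0.568 by edgeR. DESeq2 gave an adjusted p of 0.704 without the block, where 0.0845% of genes were higher past the threshold, and 0.000709 with it. In that last fit 25 genes were higher past the threshold, 0.135% of 18564, and Ptx3 was the only one of the 10 genes among them. Without replicate 1 of both groups its adjusted p in that fit was 0.0763, and without any other pair it was between 0.000169 and 0.00726. Without DMSO replicate 5, the library with the lowest Ptx3 and the most Alb, the edgeR log2 fold change was 0.51 ± 0.20 with an unadjusted p of 0.0243. With Alb (as log2 CPM) added as a covariate it was 0.42 ± 0.17 (unadjusted p 0.0333) without the block and 0.51 ± 0.08 with the block, where its adjusted p by edgeR was 0.0263. Ptx3 and Alb varied in opposite directions over the 10 libraries (Pearson r = -0.84, Spearman rho = -0.61), and r was -0.42 without DMSO replicates 4 and 5. The part of the liver transcripts in the Ptx3 difference was not tested beyond these fits.

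**Figure D1:**
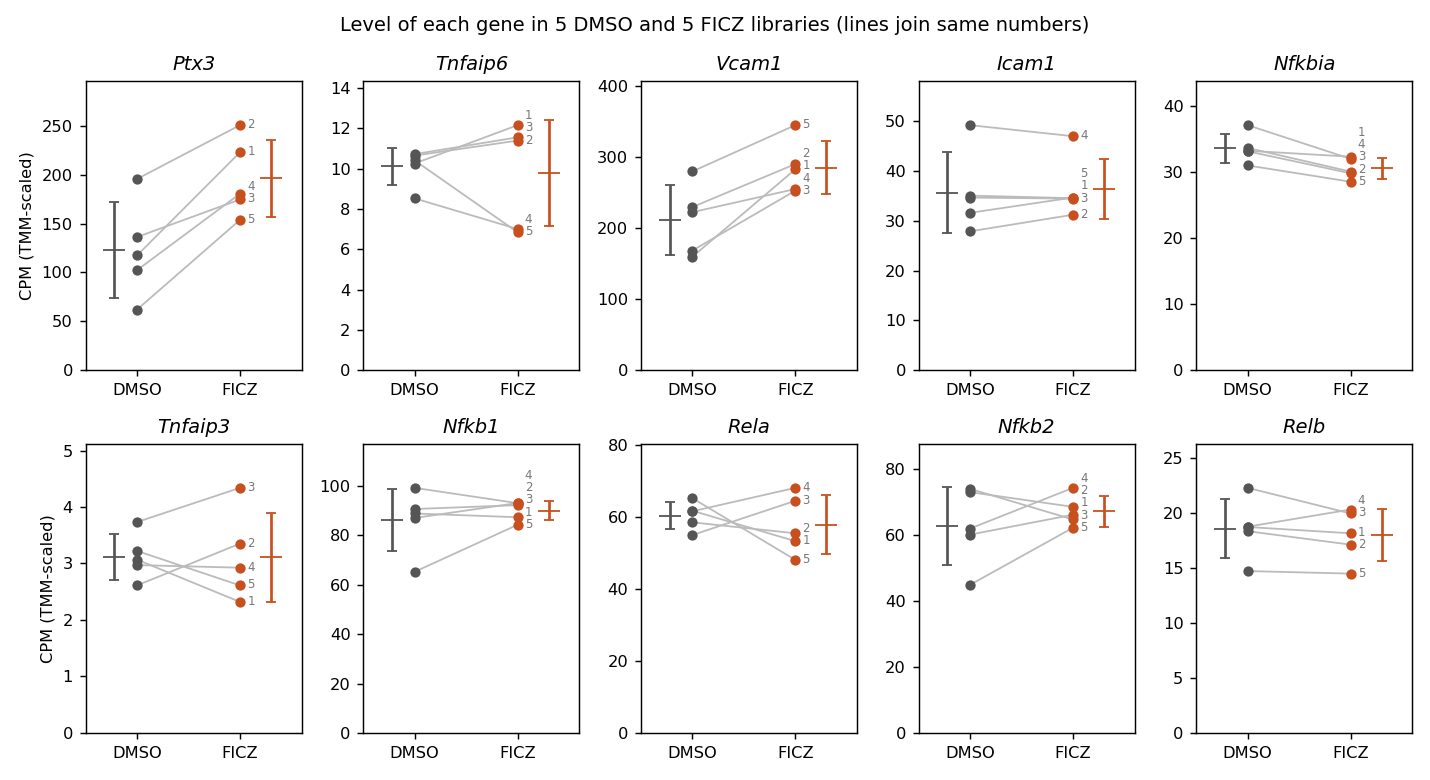
Level of each of the 10 genes in CPM (y axis from 0, a scale of its own for each gene) in the 5 DMSO (grey) and 5 FICZ (orange) libraries, with lines joining the same replicate number and bars giving the mean ± SD. Ptx3 and Vcam1 slope upward in 5 of 5 pairs, Nfkbia slopes downward in 5 of 5, and the other genes have lines in both directions.

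Vcam1, the adhesion molecule that leukocytes bind through integrin alpha-4, came next. It lies on chromosome 3 from 116109949 to 116129688 (minus strand), and 61 of its exon bases lie opposite an antisense gene, Gm43109, whose reads cannot be told apart without strand. Vcam1 was at 160, 230, 169, 223 and 280 CPM in DMSO replicates 1 to 5 and at 283, 290, 253, 255 and 345 CPM in FICZ replicates 1 to 5. Replicate 5 was the highest library of each group, and DMSO replicate 5 lay above 2 FICZ libraries, so the groups overlapped. The mean was 212 ± 49.2 CPM with DMSO and 285 ± 37.3 CPM with FICZ (SD, n = 5), a ratio of means of 1.35. The pairs differed by 0.83, 0.34, 0.59, 0.20 and 0.30 on the log2 scale, again higher with FICZ in 5 of 5. The log2 fold change was 0.43 ± 0.15 (SE, 95% interval 0.09 to 0.76), with an unadjusted p of 0.0168 and an adjusted p of 0.999 by edgeR. The exact permutation test gave p = 0.0238, and p = 0.0556 when CPM was scaled by library size alone. With the block the edgeR log2 fold change was 0.45 ± 0.10 (SE, 95% interval 0.21 to 0.68), with an unadjusted p of 0.00264 and an adjusted p of 0.637. DESeq2 with the block gave an adjusted p of 0.0770. In that fit the adjusted p was 0.00238 without replicate 4 of both groups, 0.00559 without replicate 5, and 0.173 to 0.346 without each of the other pairs. Without DMSO replicate 5 the edgeR log2 fold change was 0.55 ± 0.13, with an unadjusted p of 0.00147.

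Taking the 10 genes as a set of counts, 0 passed the adjusted threshold with edgeR, with and without the block, and 2 of 10, Ptx3 and Vcam1, were higher at an unadjusted p of 0.05 or less. The 10 genes were chosen with earlier results known, so the shares of all genes are given as description and not as a test. Over all genes tested, 1.33% were higher and 3.49% lower at that unadjusted level (2.48% and 2.17% with the block). Without the block the lower genes numbered 497, among them 19 of the 20 hepatocyte markers. Ptx3 and Vcam1 were also higher in all 5 same-numbered pairs, as were 615 of all genes tested (4.32%). By the exact permutation test 3 of 10 had p of 0.05 or less, 2 higher and Nfkbia lower, where 1.58% of all genes tested were higher and 0.835% lower (2.41% in either direction). With TMM-scaled CPM the groups overlapped in all 10. Over all genes 0.351% were free of overlap in the higher and 0.119% in the lower direction. When CPM was scaled by library size alone, Nfkbia reached the smallest possible exact permutation p (0.00794). The median log2 fold change of the 10 genes was 0.01, the same as the 0.01 of all genes tested. Leaving out 1 library at a time, no gene of the 10 passed the adjusted threshold. By edgeR the unadjusted p of Ptx3 was 0.0545 without FICZ replicate 2, and that of Vcam1 was 0.0516 without DMSO replicate 1 and 0.0592 without FICZ replicate 5. Without DMSO replicate 5, Nfkbia joined Ptx3 and Vcam1 at an unadjusted p of 0.0352, lower with FICZ. In that fit 239 of all 14300 genes tested were higher and 103 lower at the unadjusted level.

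**Figure D2:**
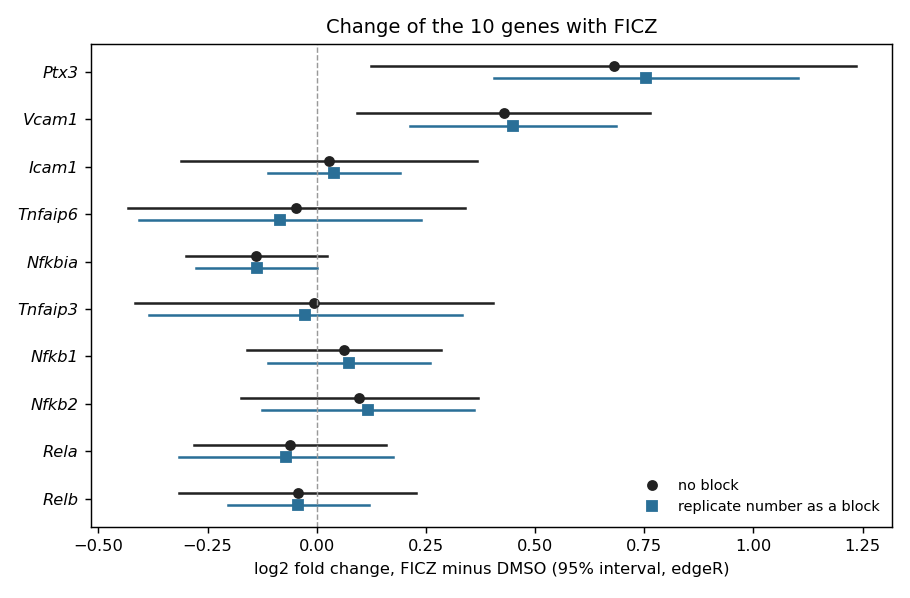
Log2 fold change of the 10 genes, FICZ minus DMSO (x axis), with 95% intervals from edgeR without a block (black circles) and blocked by replicate number (blue squares). The intervals of Ptx3 (0.12 to 1.24 without the block) and Vcam1 (0.09 to 0.76) lie above 0 in both fits, and those of the other 8 genes include 0 in both.

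Icam1, the ligand of leukocyte beta-2 integrins and the usual partner of Vcam1 among NF-kB-induced adhesion molecules, had nearly the same level in both groups. It lies on chromosome 9 from 21015985 to 21028817 (plus strand), where 511 of its 4360 exon bases lie opposite the antisense gene Gm47079. It was at 35.1, 27.9, 34.7, 49.3 and 31.6 CPM in DMSO replicates 1 to 5, and at 34.6, 31.2, 34.5, 47.0 and 34.7 CPM in FICZ replicates 1 to 5. Replicate 4 was the highest in each group, and the ranges of the groups nearly coincided. The log2 fold change was 0.03 ± 0.16 (SE, 95% interval -0.31 to 0.37), FICZ was higher in 2 of 5 pairs, and the exact permutation p was 0.833. With the block the interval was -0.11 to 0.19. The ratio of Vcam1 to Icam1 within a library was higher with FICZ by 0.41 on the log2 scale, in 5 of 5 pairs, but the groups overlapped and the exact permutation p was 0.159, so the test between libraries did not separate the genes.

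Tnfaip6 encodes TSG-6, which transfers heavy chains onto hyaluronan and binds pentraxin 3. It lies on chromosome 2 from 52038009 to 52056686 (plus strand). With DMSO it was at 10.3, 10.6, 10.7, 8.52 and 10.4 CPM, and with FICZ at 12.2, 11.4, 11.6, 7.0 and 6.84 CPM. FICZ replicates 1 to 3 lay above every DMSO library and replicates 4 and 5 below every one, so the FICZ group had the wider spread (coefficient of variation 26.9% against 8.96%). The FICZ effect on it was a log2 fold change of -0.05 ± 0.18 (SE, 95% interval -0.43 to 0.34), with 3 of 5 pairs higher and an exact permutation p of 0.675. Ptx3 was higher in all 5 pairs, including replicates 4 and 5, where Tnfaip6 was lower by 0.28 and 0.60 on the log2 scale.

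Nfkbia, the gene of IkB-alpha, was the one gene of the 10 that was lower with FICZ in every pair. It lies on chromosome 12 from 55489410 to 55492647 (minus strand). The DMSO libraries had 33.2, 33.1, 33.6, 37.0 and 31.0 CPM, and the FICZ libraries had 32.3, 29.8, 30.0, 31.9 and 28.5 CPM. The values of the groups overlapped between 31.0 and 32.3 CPM, and the pairs differed by -0.04 to -0.21 on the log2 scale. The log2 fold change was -0.14 ± 0.07 (SE, 95% interval -0.30 to 0.02), with an unadjusted p of 0.0861 and an adjusted p of 0.999 by edgeR. With the block it was -0.14 ± 0.06 (SE, 95% interval -0.28 to 0.0014), with an unadjusted p of 0.0518 and an adjusted p of 0.929. The exact permutation test gave p = 0.0397, and p = 0.00794 when CPM was scaled by library size alone. In the same libraries 2.81% of all genes tested were lower in all 5 pairs. Tnfaip3, the gene of A20, was the lowest of the 10 genes and lies on chromosome 10 from 19000910 to 19015657 (minus strand). Its counts were between 99 and 172 per library, or 2.32 to 4.34 CPM, in no consistent order of the groups. Its log2 fold change was -0.01 ± 0.19 (SE, 95% interval -0.42 to 0.40), FICZ was higher in 2 of 5 pairs, and the exact permutation p was 0.881. Neither feedback gene was higher with FICZ in more than 2 of 5 pairs.

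The 4 subunit genes were close to their DMSO level. Nfkb1, on chromosome 3 from 135584655 to 135691547 (minus strand), was at 88.8, 99.2, 90.7, 87.0 and 65.2 CPM with DMSO and 87.3, 93.0, 92.2, 93.1 and 84.3 CPM with FICZ. DMSO replicate 5 was its lowest library, and the FICZ libraries lay within the DMSO range. For Nfkb1 the log2 fold change was 0.06 ± 0.10 (SE, 95% interval -0.16 to 0.29), with 3 of 5 pairs higher and an exact permutation p of 0.675. Rela, on chromosome 19 from 5637483 to 5648130 (plus strand), was at 54.9 to 65.1 CPM with DMSO and 48.0 to 68.0 CPM with FICZ, and its log2 fold change was -0.06 ± 0.10 (SE, 95% interval -0.28 to 0.16). FICZ was higher in 2 of 5 Rela pairs, and the exact permutation p was 0.516. In the non-canonical arm, Nfkb2, on chromosome 19 from 46304320 to 46312385 (plus strand), was at 60.1, 73.0, 74.0, 62.0 and 44.9 CPM with DMSO and 66.2, 68.6, 64.7, 74.3 and 62.2 CPM with FICZ. For Nfkb2 the log2 fold change was 0.10 ± 0.12 (SE, 95% interval -0.17 to 0.37), with 3 of 5 pairs higher and an exact permutation p of 0.476, and 830 of its 4584 exon bases lie opposite Psd and AC114539.1. Relb, on chromosome 7 from 19606217 to 19629438 (minus strand), was at 14.7 to 22.3 CPM with DMSO and 14.5 to 20.3 CPM with FICZ. Its log2 fold change was -0.04 ± 0.12 (SE, 95% interval -0.32 to 0.23), with 1 of 5 pairs higher and an exact permutation p of 0.730. Nfkb1 and Nfkb2 were both lowest in DMSO replicate 5, and without that library their log2 fold changes were -0.02 and -0.0021.

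Levels between genes were compared as CPM per kilobase of exon, in the DMSO libraries. The length was that of all annotated exons of a gene joined, such as 12061 bases for Nfkb1, 8870 for Vcam1, 2682 for Ptx3 and 1610 for Nfkbia. It can exceed the length of the transcripts that these cells make, so the order depends on it. In CPM alone Nfkb1 (86.2) lay above Icam1 (35.7) and Vcam1 (212) above Ptx3 (123). Ptx3 was the highest at 45.8 ± 18.3 (SD, n = 5), then Vcam1 at 23.9 ± 5.54, Nfkbia at 20.9 ± 1.36 and Rela at 19.6 ± 1.25. Each of these lay within the joint SD of its neighbour in that order. Nfkb2 followed at 13.7 ± 2.58, beyond the SD from Rela above and Icam1 below. Icam1 (8.19 ± 1.86), Nfkb1 (7.15 ± 1.05), Tnfaip6 (5.91 ± 0.530) and Relb (4.78 ± 0.690) again overlapped from one to the next, and Tnfaip3 stood apart at 0.432 ± 0.0566. With FICZ the order was Ptx3 (73.3 ± 14.7), Vcam1 (32.2 ± 4.21), Nfkbia (18.9 ± 0.986), Rela (18.8 ± 2.68), Nfkb2 (14.7 ± 1.00), Icam1 (8.35 ± 1.4), Nfkb1 (7.46 ± 0.330), Tnfaip6 (5.72 ± 1.54), Relb (4.63 ± 0.608) and Tnfaip3 (0.430 ± 0.109), the same as with DMSO.

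The question of whether Ptx3 and Vcam1 moved with the other NF-kB genes was put as the ratio of each to the other 8 within a library, which does not depend on the scaling between libraries. The ratio of Ptx3 was higher with FICZ by 0.64 (to Nfkb2) to 0.89 (to Nfkbia) on the log2 scale, in 5 of 5 pairs for all 8 ratios. By the exact permutation test 6 of these 8 had an unadjusted p of 0.05 or less, from 0.0238 to 0.111. The ratio of Vcam1 was higher by 0.33 (to Nfkb2) to 0.59 (to Nfkbia), in all 5 pairs for 5 of 8 ratios, and 1 of 8, that to Nfkbia, had an exact p of 0.05 or less (0.0317). The p-values of the other 7 lay between 0.0556 and 0.254. This test does not use the pairing, and within pairs the Vcam1 ratio differed by 0.17 to 0.85 to Icam1 and by 0.08 to 0.87 to Relb, both higher in 5 of 5, with exact p-values of 0.159 and 0.143. The 16 ratios share their numerators, were formed with the levels known and were not adjusted. In none of them were the groups free of overlap. Ptx3 and Vcam1 were not told apart from each other by this measure, with a ratio higher by 0.30 with FICZ, 4 of 5 pairs higher and an exact permutation p of 0.619.

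How alike Ptx3 and Vcam1 were over the libraries depended on which DMSO libraries were kept. Over all 10 their log2 CPM had a Pearson r of 0.23 (Spearman rho 0.45), and r was -0.41 once group means were removed. Without DMSO replicates 4 and 5, the libraries farthest from the Ptx3 median, r was 0.66 with group means kept. Without DMSO replicates 1 and 3, those farthest from the Vcam1 median, it was 0.095. In replicate 5 of each group Ptx3 was at its lowest and Vcam1 at its highest. Among the other members, Ptx3 was most like Nfkb1 (r = 0.80, rho = 0.66) and Nfkb2 (r = 0.80, rho = 0.66). Without DMSO replicates 4 and 5 r was 0.33 and 0.33 with group means kept, so the size of r depended on those libraries. Over all 10 libraries with group means removed, r was 0.88 with Nfkb1 and 0.84 with Nfkb2. Group means were not removed in the fit without DMSO replicates 4 and 5. Vcam1 had r of -0.69 with Relb and -0.66 with Nfkbia (rho -0.71 and -0.84), and -0.72 and -0.82 without DMSO replicates 1 and 3. Once group means were removed, these r were -0.84 with Relb and -0.38 with Nfkbia. Over all genes, those most like Ptx3 were Rnf219 (r = 0.97), Galnt10 (0.96), Ola1 (0.95), Kansl2 (0.94) and Inhbb (0.94), whose rho lay between 0.79 and 0.96. Those most like Vcam1 were Dipk1a (0.93), Atp8a1 (0.93), Npepps (0.93), Birc2 (0.92) and Crbn (0.91), whose rho lay between 0.77 and 0.89. Of 14250 genes each, Vcam1 was number 5746 in likeness to Ptx3. These are descriptions over 10 libraries that share their scaling and, within a group, the treatment, and the genes named were the highest of all genes, so no p is given.

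**Figure D3:**
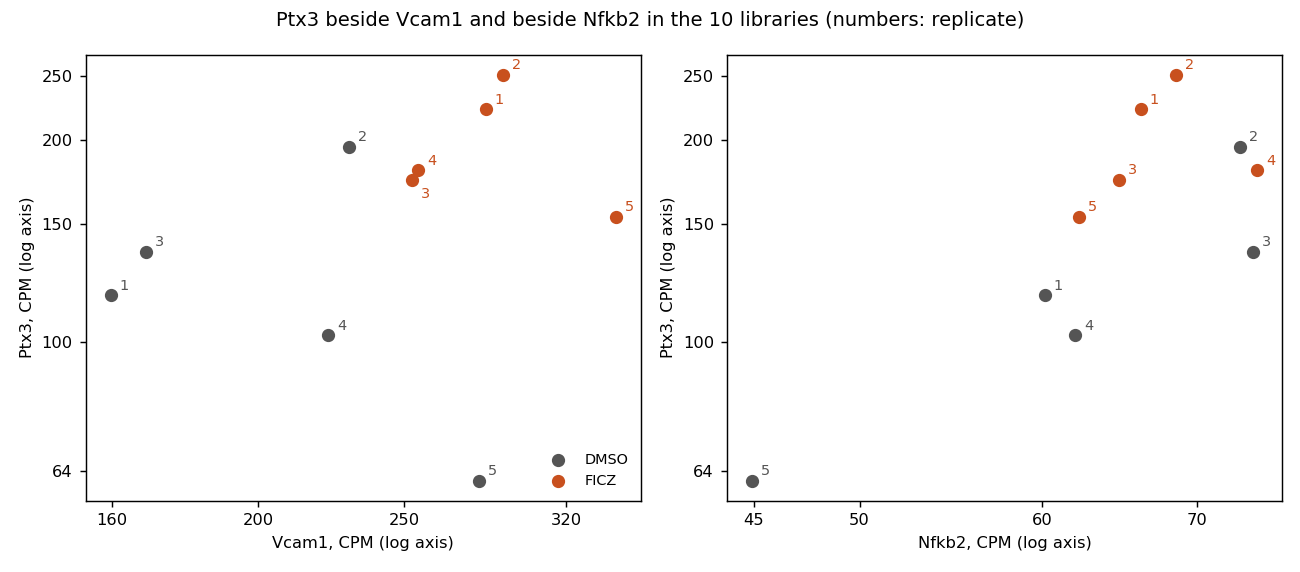
Ptx3 level (y axis, CPM on a log axis) against that of Vcam1 (left) and Nfkb2 (right) in CPM on a log axis, for DMSO (grey) and FICZ (orange) libraries with their replicate numbers. DMSO replicate 5 is the lowest in Ptx3 (62.0 CPM) and Nfkb2 (44.9 CPM) and the highest DMSO library in Vcam1 (280 CPM).

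The rest of the pathway was described from textbook lists by role, also chosen with earlier results known. The 5th subunit, Rel (c-Rel), had a log2 fold change of 0.23 ± 0.15 (SE), from 5.45 ± 0.988 CPM with DMSO to 6.41 ± 0.794 CPM with FICZ (SD, n = 5), and its unadjusted p by edgeR was 0.140. Of 15 IkB proteins and other negative regulators, all tested, 1 was higher and 0 lower at the unadjusted level, where 1.33% of all genes were higher and 3.49% lower. This was Nfkbiz, an atypical nuclear IkB, at 8.95 ± 0.917 CPM with DMSO and 10.7 ± 0.962 CPM with FICZ (log2 fold change 0.25 ± 0.11, SE, higher in 5 of 5 pairs). Cyld, a deubiquitinase that restrains the pathway, joined it with the block (0.19 ± 0.06, higher in 5 of 5 pairs). The most abundant of them, Tax1bp1, had a log2 fold change of 0.13 ± 0.09. The median of the 15 was 0.09, against 0.01 for all genes tested, and 11 were higher and 4 lower, beside 7666 higher and 6585 lower of all genes.

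Among 26 kinases and adaptors 1 was higher and 0 lower at the unadjusted level (3.85%, against 4.82% of all genes in either direction). The median log2 fold change was 0.08, with 21 higher and 5 lower, beside the same 7666 and 6585 of all genes. Birc3 (cIAP2), a ubiquitin ligase of the TNF receptor complex that is also an NF-kB target, was at 20.1, 23.6, 20.9, 25.7 and 22.9 CPM in DMSO replicates 1 to 5 and at 26.5, 29.7, 28.0, 28.7 and 29.6 CPM in FICZ replicates 1 to 5. Every FICZ library lay above every DMSO library, as held for 0.351% of all genes tested. Birc3 had a log2 fold change of 0.33 ± 0.08 (SE), with an unadjusted p of 0.00203 and an adjusted p of 0.999 by edgeR, an adjusted p of 0.250 by DESeq2 with the block, and an exact permutation p of 0.00794, the smallest that 5 against 5 can give. Over the libraries Birc3 and Vcam1 had r = 0.83 (rho 0.79), and r was 0.48 without DMSO replicates 1 and 3. Its paralog Birc2 had a log2 fold change of 0.21 ± 0.12. The abundant kinases Map3k7 (TAK1) and Irak1 were at 0.08 ± 0.08 and -0.01 ± 0.07.

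Of 17 receptors 16 were tested, and 0 were higher or lower at the unadjusted level. The TNF receptor Tnfrsf1a was at 250 ± 25.8 CPM with DMSO and 257 ± 23.6 CPM with FICZ, Ltbr, the lymphotoxin-beta receptor upstream of the non-canonical arm, at 124 ± 8.90 and 131 ± 10.2 CPM, and the IL-33 receptor Il1rl1 at 385 ± 113 and 374 ± 156 CPM (SD, n = 5). Of 10 ligands only 3 had enough counts to be tested. The other 7, among them Tnf and Il1b (named after their values were seen), had at most 20 counts in any library, and a difference in them was not detectable at this depth. Il33, an alarmin stored in stromal nuclei, was at 84.1 ± 13.5 CPM with DMSO and 66.1 ± 11.7 CPM with FICZ, lower in 5 of 5 pairs (log2 fold change -0.35 ± 0.14, SE, unadjusted p 0.0289 and adjusted p 0.999 by edgeR). The exact permutation p of Il33 was 0.0556.

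Of 50 other NF-kB target genes, 41 were tested. At the unadjusted level 4 were higher and 0 lower, 9.76% of those tested against 4.82% of all genes in either direction. With the block 6 were higher and 1 lower, 17.1% against 4.65%. The 4 were Irf1, Birc3, Nfkbiz and Ier3, and all 4 were higher in 5 of 5 pairs. Irf1, an interferon-regulatory transcription factor, was at 51.5, 54.9, 49.2, 64.9 and 46.1 CPM with DMSO and 92.1, 63.0, 67.0, 72.9 and 74.8 CPM with FICZ, where only DMSO replicate 4 lay above a FICZ library. The log2 fold change of Irf1 was 0.47 ± 0.12 (SE), with an unadjusted p of 0.00205 and an adjusted p of 0.999 by edgeR, and an exact permutation p of 0.0159. Ier3, an immediate early survival gene, was at 17.5 ± 3.87 CPM with DMSO and 22.5 ± 3.51 CPM with FICZ (log2 fold change 0.36 ± 0.16, SE). Cxcl10, a chemokine named after its values were seen, had the largest value of the 41, 1.66 ± 0.78 (SE), and did not reach the unadjusted level. The most abundant targets, the macrophage growth factor Csf1 and complement C3, had log2 fold changes of 0.10 ± 0.18 and -0.25 ± 0.17. The median of the 41 was 0.01, with 21 higher and 20 lower. Over the pathway and target lists together, without the 10 genes, 91 of 108 genes were tested, and 4 were higher and 1 lower at the unadjusted level, 5.49% of them against 4.82% of all genes. With the block 7 were higher and 2 lower, 9.89% against 4.65%. No gene of these lists passed the adjusted threshold with edgeR, with or without the block.

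**Figure D4:**
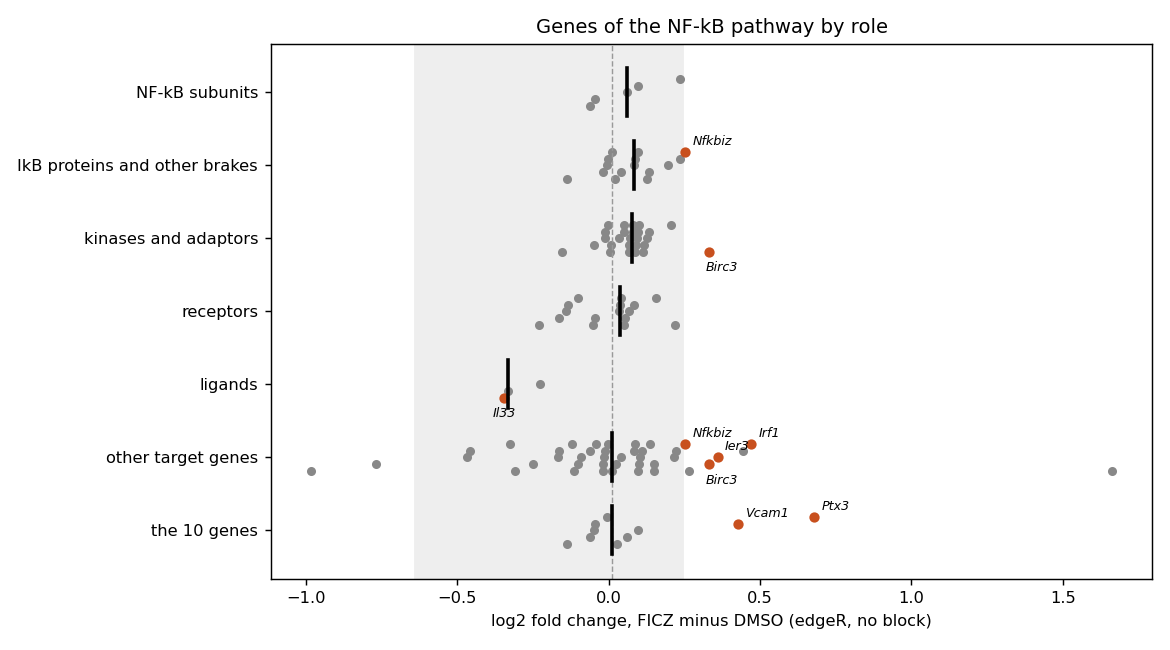
Log2 fold change, FICZ minus DMSO (x axis, edgeR without a block), of each tested gene by role in the NF-kB pathway (y axis, vertical position within a row carries no value), with orange for an unadjusted p of 0.05 or less, a black bar for the median of each list, a dashed line for the median of all genes tested (0.01) and a grey band from their 5th to their 95th percentile (-0.64 to 0.24). Of the genes in orange, Ptx3 and Vcam1 lie to the right of the band, as do Irf1, Birc3, Nfkbiz (0.25, close to its edge) and Ier3. Cxcl10, not in orange, lies to the right of it too. The medians of the targets and of the 10 genes lie at 0.01. The genes behind the band include the 20 hepatocyte markers, whose median was -1.11.

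The genes around Vcam1, Icam1 and Ptx3 outside the pathway were also described. Of 14 adhesion partners (integrins, cytoskeletal linkers and related adhesion molecules) 11 were tested, and 0 were higher or lower at the unadjusted level without the block. Itgb1, the beta-1 chain of the Vcam1 receptor, was at 1152 ± 100 CPM with DMSO and 1208 ± 107 CPM with FICZ (log2 fold change 0.07 ± 0.09, SE), and Itgb7 became 1 gene higher with the block (0.39 ± 0.14). Of 17 genes of the hyaluronan matrix 15 were tested, with 0 higher and 5 lower at the unadjusted level (33.3%, where 3.49% of all genes were lower). With the block 1 was higher and 1 lower (13.3%, against 4.65% of all genes). Itih1, Itih3, Itih4 and Ambp, which are among the 5, encode inter-alpha-inhibitor proteins made in the liver, and they had log2 fold changes of -1.10 to -1.15 but were higher with FICZ in 2 of 5 pairs. Like Alb they were highest in DMSO replicate 5, and the part of that library in their difference was not tested. Over all genes tested 497 of 14251 were lower at the unadjusted level, and 103 of 14300 without that library. Versican (Vcan), the most abundant of the list and made by stromal cells, was at 653 ± 81.0 CPM with DMSO and 788 ± 119 CPM with FICZ, higher in 5 of 5 pairs. Its log2 fold change was 0.27 ± 0.12 (SE, unadjusted p 0.0510 by edgeR), and 0.27 ± 0.07 with the block (unadjusted p 0.00454, adjusted p 0.753). The hyaluronan receptor Cd44 was at 206 ± 49.7 and 215 ± 65.7 CPM.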

How the data were processed

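Bulk RNA sequencing of 10 libraries of cultured ASPCs was analysed. The authors aligned reads with STAR (2.7.7, per the labels) to mm10 and deposited raw counts per gene symbol, with no normalization. The counting program, annotation, strand setting and handling of reads with several matches are not given in the sources used here. All 25229 rows carried a symbol, 8 rows of repeated symbols (at most 5 counts) were left out, and totals were 38328607 to 50210110 counts per library. Limits of 3 counts cover counting error only.

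Counts were tested with edgeR 4.0.16 (R 4.3.3) by the quasi-likelihood test, with TMM normalization, robust dispersions and the filter by expression, which left 14251 genes, and p-values were adjusted by Benjamini-Hochberg over all of them, with a threshold of 0.05. The SE was the log2 fold change over the square root of F. For single genes the log2 CPM (prior count 2) was permuted exactly over 252 arrangements, two-sided. CPM per kilobase used all GENCODE exons of a gene joined (GRCm38), promoters were those of RefSeq (GRCm38.p6). Alternatives were DESeq2 1.42.0, limma-voom (limma 3.58.1), other scalings and filters, an Alb covariate, a replicate block and leaving out libraries. The edgeR code was tested on simulated data.

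The labels number replicates alike in both groups without saying what a number marks. Deviations from the group means of same-numbered libraries correlated across genes at 0.269, 0.275, 0.154, 0.317 and 0.244. The mean for other numbers was -0.06, which is no separate baseline, because centring on group means largely fixes it from the same-numbered values. The numbers were taken to pair the libraries. The main edgeR fit and the exact permutation tests did not use this pairing.

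The 10 genes and the lists were chosen with earlier results of these data known. Genes named from a list were the 4 with the smallest unadjusted p and the 2 with the highest level, and for likeness the 5 with the highest r. The Alb covariate without DMSO replicate 5, and DESeq2 with the block without each pair, were added after the data were seen.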

Additional observations from a re-analysis of the deposited data

Results flagged for a closer look

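For each of the 10 genes and each group of 5 libraries, the gap on the log2 CPM scale of the highest or lowest library to its nearest neighbour was divided by the range of the group and compared with the 95% critical value of Dixon's test. Of 20 groups examined, 2 held a library beyond it, where chance gives about 1. Icam1 was highest in FICZ replicate 4 (47.0 CPM, next 34.7 CPM), with a gap of 0.744 of the range in log2 CPM, and replicate 4 was also the highest Icam1 library with DMSO (49.3 CPM). Tnfaip6 was lowest in DMSO replicate 4 (8.52 CPM, next 10.3 CPM), with a gap of 0.806 of the range in log2 CPM, and the same number was among the 2 lowest with FICZ (7.0 CPM).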

How the results depend on the processing

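The number of all genes past the threshold was 3, and 8 with the replicate block, 16 with DESeq2, 26 with DESeq2 and the block, 16 with the Alb covariate and the block, and 1 with the Alb covariate without DMSO replicate 5. It was 1 to 4 with single libraries left out, 1 to 8 with a pair left out and the block, and 25, 25, 45, 68 and 76 without pairs 1 to 5 in DESeq2 with the block. None of the 10 genes passed, except Ptx3 with DESeq2 and the block (1 gene, log2 fold change 0.75) and with the Alb covariate and the block (1 gene, 0.51). In DESeq2 with the block and a pair left out, 0 to 2 passed, and the log2 fold change of Ptx3 was 0.61, 0.73 or 0.85 and that of Vcam1 0.51 without pair 4 and 0.48 without pair 5 where they passed. The block changed no other call among the 10 genes, and with it Tiparp was at an adjusted p of 0.0509 in edgeR. Leaving out single libraries moved Ptx3 from 0.51 to 0.91, Vcam1 from 0.32 to 0.55 and Nfkbia from -0.17 to -0.10, in the same direction throughout. With library-size CPM the exact permutation p of Vcam1 was 0.0556, and that of Nfkbia was 0.00794 against 0.0397 with TMM scaling.

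Differences of the other genes, none past the threshold, changed sign in these fits. With the Alb covariate Nfkb1 was -0.061, Nfkb2 -0.073 and Tnfaip3 0.0016. With the block as well Nfkb1 was -0.022, Nfkb2 -0.050, Rela 0.038, Tnfaip3 0.13 and Tnfaip6 0.093, and with the covariate without DMSO replicate 5 Nfkb1 was -0.052 and Nfkb2 -0.070. With pair 5 left out, the block gave -0.0064 for Nfkb1, 0.015 for Rela, 0.038 for Tnfaip3 and 0.038 for Tnfaip6, and DESeq2 with the block gave -0.0053, 0.016, 0.039 and 0.040. With pair 1 left out Tnfaip3 was 0.054 and 0.057. With single libraries left out the ranges were -0.081 to 0.17 for Icam1, -0.023 to 0.12 for Nfkb1, -0.0021 to 0.16 for Nfkb2, -0.12 to 0.031 for Relb, -0.15 to 0.083 for Tnfaip3 and -0.14 to 0.053 for Tnfaip6. Of the 5 genes most like Ptx3, 1 was among the 5 highest with group means removed and 2 by Spearman rho, and of those most like Vcam1 0 and 0. The cause of these changes was not tested. With 5 libraries a group the interval of Ptx3 spans 0.12 to 1.24.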
